A study of Mus musculus with 8 samples.

Results

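The genes examined here are the ligands of the receptor CSF1R, the receptor itself and 7 markers of skin macrophages. They are Csf1, Il34, Csf1r, Adgre1, Cd68, Mrc1, Cd163, Lyz2, C1qa and C1qb, and they were taken by symbol from a list made with earlier results of these data known. All 10 were found among the 18770 genes of the table, and all 10 passed the filter on low values that left 15964 genes for testing. The question was whether the ligands change together with the cells that carry their receptor.

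CSF1R is a receptor tyrosine kinase of monocytes, macrophages, microglia and Langerhans cells, and its signal keeps most tissue macrophages alive. It has a pair of ligands that do not resemble each other in sequence: CSF1, made by fibroblasts, endothelium and other stromal cells, and IL-34, made in the skin mainly by keratinocytes and needed by Langerhans cells. In skin, macrophages lie around hair follicles and change in number and state through the hair cycle, and macrophages that bind CSF1 also clear it by uptake and degradation.

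Messenger RNA was sequenced from dermis with hair follicles of the dorsal skin, after the interfollicular epidermis had been taken off, at D4 after depilation. All mice were male wildtype, labelled as C57BL/6 (C57BL/6J in the methods), depilated at 6 to 7 weeks and labelled as 7 to 8 weeks old. The vehicle group (VC) had 65% ethanol on the skin, and the alpinetin group (AP) had 3 mg/ml alpinetin, a plant flavonoid, in the same 65% ethanol. Both groups received 20 µl once a day from 24 h after depilation, and 4 libraries of each were compared, numbered 1 to 4 within their group (VC.1, AP.1 and so on).

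Levels are normalized counts, reads divided by 1 factor per library and listed in the order of the library numbers, and fold changes are AP over VC on the scale log2(normalized count + 1). The libraries held 6454563 to 7264151 reads on genes in VC and 8507783 to 11190113 in AP. Mitochondrially encoded genes took 54.3% of the reads in VC.1, 44.9% in VC.2, 42.1% in VC.3 and 52.3% in VC.4, and 11.1%, 7.85%, 5.32% and 10.3% in the AP libraries. Every VC library had a higher share than every AP library, so the treatment and this share cannot be told apart by design. VC.1 and VC.4, the only libraries above 50% mitochondrial reads, also had the fewest other reads, 3318511 and 3080758. Results are given below with and without this pair where it matters.

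The ligand Csf1 was higher in AP, while no other member passed the test. That is 1 of 10 members called higher and 0 of 10 called lower at an adjusted p under 0.05 in limma, beside 6.33% of all 15964 genes tested called higher and 4% called lower. In edgeR 0 members were called, beside 1003 of all 15964 genes called higher and 712 lower. In DESeq2 2 members were called higher and 2 lower, beside 1677 and 1362 of all genes tested. At an unadjusted p under 0.05, 7 of the 10 members and 4840 of all genes tested were counted. Il34 was the only member whose groups did not overlap, with all AP libraries above all VC libraries, as in 10.3% of genes tested; no member had all AP libraries below all VC libraries, as in 8.91% of genes tested. The median log2 fold change of the 10 members was −0.78, beside 0.06 over all genes tested, with the ligands above the all-gene median and the receptor and all 7 markers below it under the deposited normalization. The median of the members was −0.45 without VC.4, −0.23 without VC.1 and VC.4 and 0.09 with total-count scaling. Under total-count scaling the median of all genes was itself 0.90, and the members stood at −0.81 relative to it. A count of 1 in 10 is close to the share in all genes, and nothing particular to these genes is read from it.

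Csf1 encodes the colony-stimulating factor that monocytes and macrophages need to survive and divide. It was at 38.2, 100.5, 194 and 91.9 normalized counts in VC and at 398, 386, 210.3 and 164 in AP. AP.1 and AP.2 were the highest and VC.1 by far the lowest, and the groups overlapped because VC.3 lay above AP.4. The group means were 106 ± 64.7 (SD, n = 4) in VC and 289.6 ± 120.0 (SD, n = 4) in AP, a 2.73-fold difference of means. Csf1 rose with a log2 fold change of 1.56 ± 0.45 (SE), 95% interval 0.58 to 2.53, and an adjusted p of 0.0482 in limma. The exact permutation test, 2-sided over all 70 ways to assign the libraries, gave p = 0.0571, where 0.0286 is the smallest value it can give.

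The call for Csf1 lay at the edge of the threshold. It was kept in DESeq2 (adjusted p = 0.0126) and lost in edgeR (adjusted p = 0.0507), and over 20 alternatives the adjusted p ran from 0.00298 to 0.194 with 5 of them under 0.05, while the fold change stayed above 0 in every one. Leaving out any single library other than VC.3 ended the call (limma adjusted p from 0.0645 to 0.122), and the smallest log2 fold change among these fits was 1.14, without VC.1. Without VC.1 and VC.4, an alternative chosen after the data were seen, it was 0.95 (95% interval 0.03 to 1.86, limma adjusted p = 0.194). Csf1 is also a gene that the study named from these same libraries, so its direction here is no independent evidence.

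Il34 encodes the other ligand of CSF1R. It was at 106, 118, 134 and 97.5 normalized counts in VC and at 192, 163, 145 and 197 in AP. Every AP library lay above every VC library, but the nearest pair, VC.3 and AP.3, were close. The means were 114 ± 15.9 (SD, n = 4) in VC and 174 ± 24.5 (SD, n = 4) in AP, and in both groups Il34 had the smallest SD relative to its mean among the members. The log2 fold change was 0.61 (95% interval 0.17 to 1.05), which missed the threshold in limma (adjusted p = 0.0704), with an exact permutation p of 0.0286 for this gene alone. The call was made in DESeq2 (adjusted p = 0.0300), with total-count scaling (adjusted p = 0.00138) and with a trend on transcript length removed (limma adjusted p = 0.0463). Without VC.1 and VC.4 the value was 0.46 (95% interval −0.03 to 0.94, limma adjusted p = 0.225).

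Csf1r encodes the receptor and marks the cells on which both ligands act. It was at 891, 588, 561 and 1524 normalized counts in VC and at 912, 792, 641 and 634 in AP. VC.4 was the highest library and VC.3 the lowest, so that the AP libraries lay inside the range of VC. The means were 891 ± 448 (SD, n = 4) in VC and 745 ± 133 (SD, n = 4) in AP. The log2 fold change was −0.15 with a 95% interval of −0.78 to 0.47 (limma adjusted p = 0.752), so a change of up to 0.78 downward or 0.47 upward on the log2 scale lies within the error. Its sign was not stable: it was 0.15 without VC.4, 0.36 (95% interval −0.08 to 0.79) without VC.1 and VC.4, and 0.72 (limma adjusted p = 0.0283) when libraries were scaled by total counts, a scaling under which the median of all genes itself moved from 0.06 to 0.90. Relative to that median, Csf1r stood at −0.18 under total-count scaling.

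**Figure D1:**
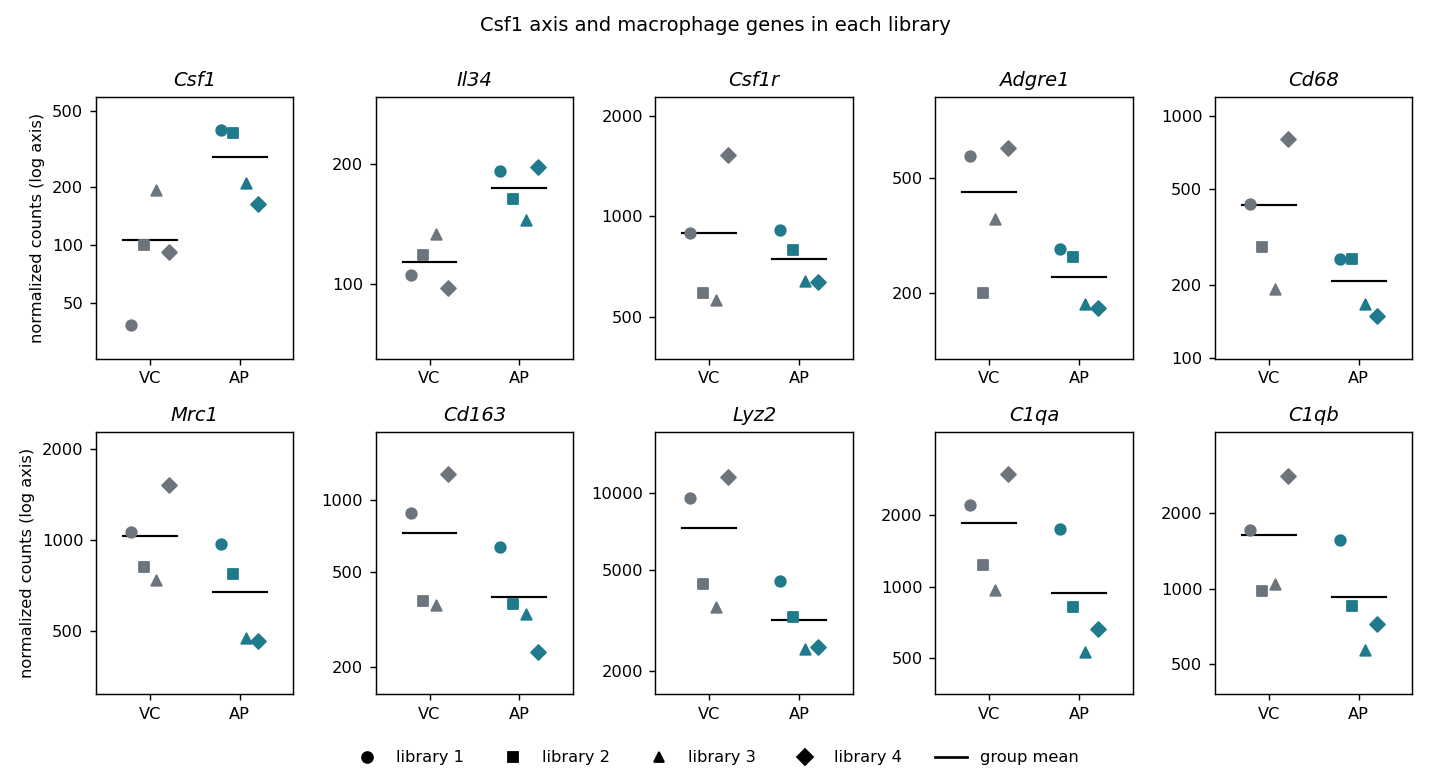
Normalized counts of the 10 genes in each library, on log axes, with VC at the left and AP at the right of each panel, 1 symbol per library and a bar at the group mean. Csf1 ran from 38.2 to 194 in VC and from 164 to 398 in AP, Il34 did not overlap between groups, and VC.4 was the highest library for Csf1r and all 7 markers.

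The markers are made by macrophages but differ in what they report. Adgre1 encodes F4/80, a surface protein of mature mouse macrophages, and was at 595, 201, 362 and 638 normalized counts in VC and at 284, 267, 184 and 179 in AP. VC.1, VC.3 and VC.4 stood above all AP libraries, VC.2 stood below AP.1 and AP.2, and the log2 fold change was −0.86 (95% interval −1.60 to −0.13, limma adjusted p = 0.111). Cd68 encodes a glycoprotein of lysosomes and endosomes in phagocytes. It was at 435, 288, 194 and 804 normalized counts in VC and at 256, 257, 168 and 149 in AP, with a log2 fold change of −0.89 (95% interval −1.71 to −0.07, limma adjusted p = 0.138). Here too VC.4 and VC.1 were highest, while VC.3 lay among the AP libraries.

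Mrc1 and Cd163 encode scavenger receptors, for mannosylated glycoproteins and for haemoglobin bound to haptoglobin, which are typical of resident dermal macrophages. Mrc1 was at 1062, 814, 737 and 1519 normalized counts in VC and at 975, 774, 475 and 466 in AP, and Cd163 at 884, 378, 365 and 1283 in VC and at 639.7, 367, 335 and 232 in AP. In both genes AP.1 was the highest AP library and lay above VC.2 and VC.3. Their log2 fold changes were −0.63 (95% interval −1.25 to −0.01, limma adjusted p = 0.156) and −0.77 (95% interval −1.68 to 0.13, limma adjusted p = 0.228).

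Lyz2 encodes lysozyme of monocytes, macrophages and neutrophils and was the most abundant member. It was at 9603, 4411, 3549 and 11655 normalized counts in VC and at 4508, 3259, 2427 and 2477 in AP. AP.1 lay above VC.2 and VC.3, and the other AP libraries lay below all VC libraries. The log2 fold change was −1.08 (95% interval −1.89 to −0.27), not called in limma (adjusted p = 0.0786) and called in DESeq2 (adjusted p = 0.0137). Its value is uncertain, since 15.4% of the 50-base words of its transcripts also occur in its paralog Lyz1.

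C1qa and C1qb encode chains of the complement component C1q, which tissue macrophages make, and they lie in 1 cluster with C1qc on chromosome 4. C1qa was at 2196, 1237, 965 and 2981 normalized counts in VC and at 1739.9, 817, 530.1 and 662 in AP, and C1qb at 1712, 979.8, 1039 and 2798 in VC and at 1567, 855, 572 and 725 in AP. AP.1 alone kept the groups from separating in either gene. The log2 fold changes were −0.99 (95% interval −1.87 to −0.12, limma adjusted p = 0.122) for C1qa and −0.78 (95% interval −1.57 to 0.01, limma adjusted p = 0.169) for C1qb.

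Over the 7 markers, 0 were called in either direction in limma or edgeR, 5 had an unadjusted p under 0.05 (as had 4840 of 15964 genes tested), and DESeq2 called 2, Lyz2 and Adgre1 (adjusted p = 0.0362), both lower. All 7 had a log2 fold change below 0, as had 7427 of all genes tested, under the deposited normalization, with a median of −0.86, and also in edgeR (−0.98), DESeq2 (−0.97) and limma-voom (−0.84), with upper-quartile scaling (−0.92) and with total counts without mitochondrial genes (−0.82). They went together between libraries, so 7 values of 1 sign are not 7 separate pieces of support. Only under scaling by all counts, mitochondrial ones included, were 4 of them (Adgre1, Mrc1, Cd163 and C1qb) above 0, where the median of the 7 was 0.00, which is −0.90 relative to the median of all genes under that scaling. Without VC.1 and VC.4 the median of the markers was −0.27, and single markers ran from −0.38 in C1qa to −0.01 in Cd163. Among single libraries, leaving out VC.4 brought the median to −0.52, and 3 calls appeared: Adgre1 without VC.2 (−1.20, limma adjusted p = 0.0239), Lyz2 without VC.3 (−1.37, limma adjusted p = 0.0406) and C1qa without AP.1 (−1.34, limma adjusted p = 0.0326). In bulk tissue, fewer macrophages and less of these RNAs per macrophage cannot be told apart. The summed level of the 7 markers was 16486, 8309, 7211 and 21677 normalized counts in VC and 9969, 6596, 4691 and 4891 in AP. The libraries with the highest sums were thus those with the highest mitochondrial share, and the part of that share in the marker values was not tested.

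**Figure D2:**
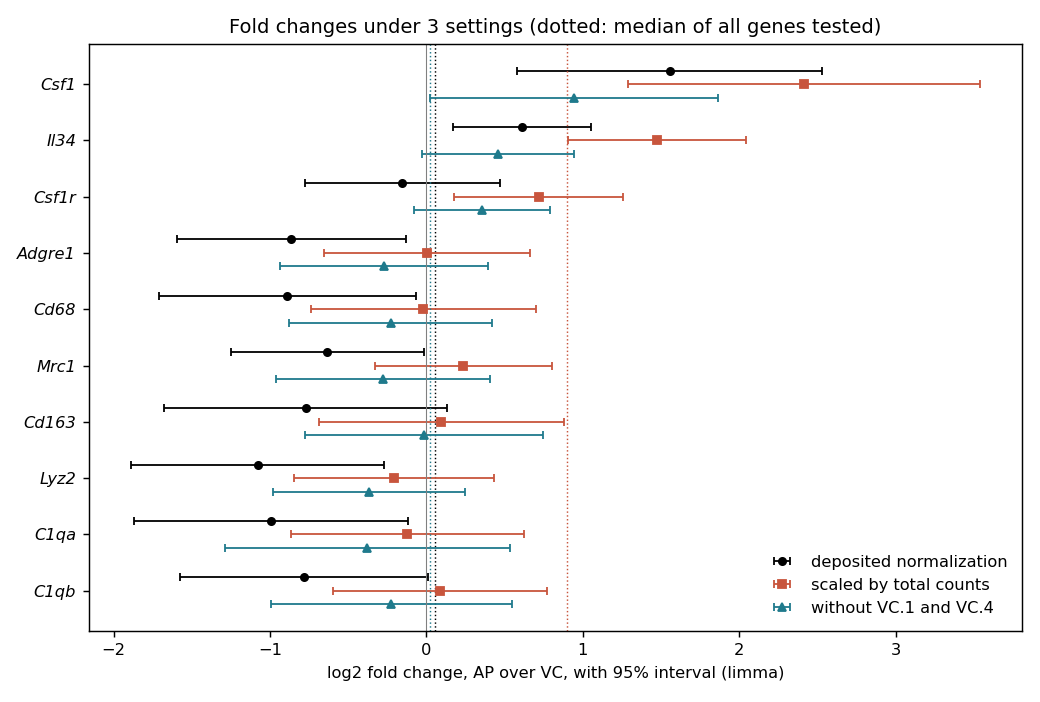
Log2 fold change of AP over VC for the 10 genes, with 95% intervals from limma, under the deposited normalization (circles), with total-count scaling (squares) and without VC.1 and VC.4 (triangles), with dotted lines at the median of all genes tested. Csf1 was above 0 under all 3 settings (1.56, 2.42 and 0.95), Csf1r moved from −0.15 to 0.72 and 0.36, and the 7 markers ran from −0.21 to 0.24 with total-count scaling and from −0.38 to −0.01 without VC.1 and VC.4.

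Ratios between genes of 1 library are free of the library scaling. They ask whether the RNA of a ligand moved by another amount than an RNA that its target cells carry. They do not count those cells. The log2 ratio of Csf1 to Csf1r was −4.51, −2.54, −1.53 and −4.04 in VC and −1.19, −1.03, −1.60 and −1.95 in AP. VC.3 alone reached the range of AP, and the group means of −3.15 ± 1.37 (SD, n = 4) and −1.44 ± 0.41 (SD, n = 4) differed by 1.71 with an exact permutation p of 0.0857 (0.257 adjusted over the 6 ratios set for this comparison). The ratio of Csf1 to Adgre1 was −3.93, −0.99, −0.90 and −2.78 in VC and 0.48, 0.53, 0.19 and −0.13 in AP. Here every AP library lay above every VC library. The difference was 2.42, with an exact permutation p of 0.0286 that became 0.171 after adjustment over the 6 ratios. As 0.0286 is the smallest p that 70 assignments allow, a lone separated ratio among 6 could not pass, so the adjusted value does not speak against a difference. Without VC.1 and VC.4 these differences were 0.59 for Csf1 to Csf1r and 1.22 for Csf1 to Adgre1.

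The ratio of Il34 to Csf1r was −2.85 ± 0.85 (SD, n = 4) in VC and −2.08 ± 0.27 (SD, n = 4) in AP, an exact permutation p of 0.2. The ratio of Csf1 to Il34 was −0.31 ± 0.83 (SD, n = 4) in VC and 0.64 ± 0.67 (SD, n = 4) in AP (exact permutation p = 0.171), with AP.4 among the VC libraries. Neither ligand was thus shown to have moved more than the other. The ratio of Il34 to Krt14, a keratin of basal keratinocytes, which are a source of IL-34, was −7.20 ± 0.86 (SD, n = 4) in VC and −7.61 ± 0.81 (SD, n = 4) in AP (exact permutation p = 0.629). Without VC.1 and VC.4 the differences shrank from 0.76 to 0.10 for Il34 to Csf1r and from 0.95 to 0.49 for Csf1 to Il34, and turned from −0.41 to 0.22 for Il34 to Krt14.

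The planned ratio with the smallest difference was that of Csf1r to Ptprc, which encodes CD45, the surface phosphatase of all leukocytes. It was 2.12, 1.62, 2.0 and 2.03 in VC and 1.97, 2.28, 1.77 and 1.95 in AP, a difference of 0.05 with an exact permutation p of 0.8. The difference was 0.18 without VC.1 and VC.4. Over the same libraries Csf1r levels ran from 561 to 1524 normalized counts. The ratio of Adgre1 to Csf1r, chosen after the values were seen and given with no test, was −0.58, −1.54, −0.63 and −1.26 in VC and −1.68, −1.56, −1.80 and −1.82 in AP. All AP libraries lay below all VC libraries, though AP.2 and VC.2 differed by little. The ratio of Csf1 to Pdgfra, a marker of the fibroblasts that make CSF1, was chosen in the same way and averaged −1.89 ± 1.03 (SD, n = 4) in VC and −0.92 ± 0.29 (SD, n = 4) in AP, with overlapping groups and a difference of 0.97 that was 0.13 without VC.1 and VC.4.

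**Figure D3:**
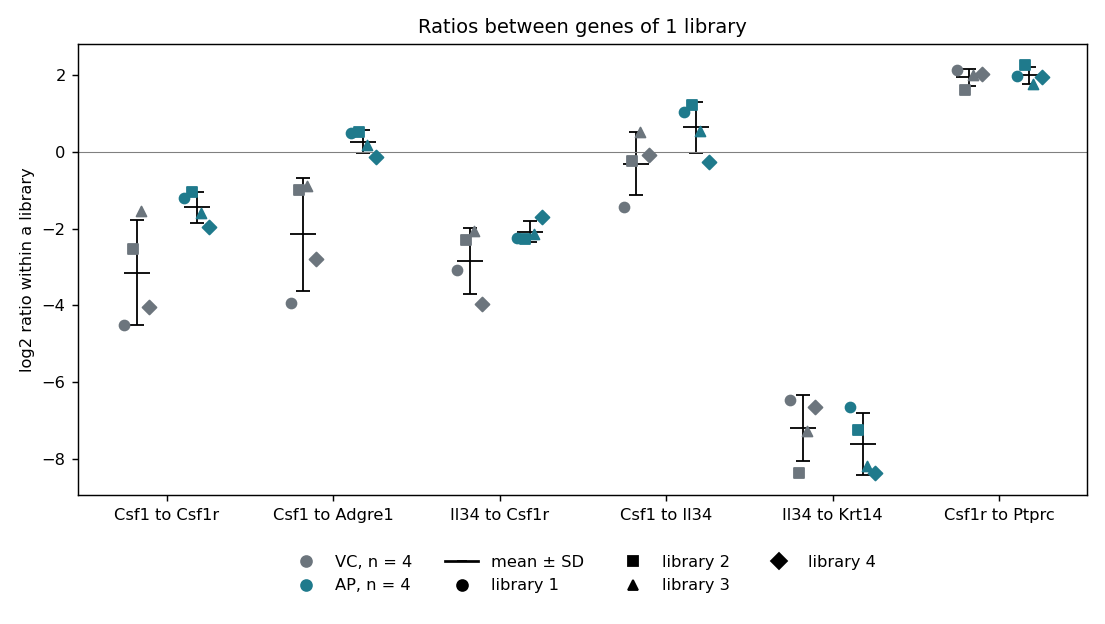
Log2 ratio of the normalized counts (plus 1) of 6 pairs of genes within each library, VC in grey and AP in teal, with 1 symbol per library and bars for mean ± SD (n = 4). Csf1 to Adgre1 separated the groups (−3.93 to −0.90 in VC, −0.13 to 0.53 in AP), and Csf1r to Ptprc lay between 1.62 and 2.28 in all 8 libraries.

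The receptor and the markers went up and down together within groups, and the ligands did not go with them. As a description over 8 libraries that share depth and mitochondrial share, the correlations of log2 deviations from the group means among Csf1r and the 7 markers ran from 0.73 to 0.97 over 28 pairs, with a median of 0.90. Those of Csf1 with the same 8 genes ran from −0.31 to 0.14, with a median of −0.13, and those of Il34 from −0.60 to −0.18, with a median of −0.41. Csf1 and Il34 had a correlation of 0.40 with each other.

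Among 11257 tested genes with a mean of at least 50 normalized counts, the patterns most like that of Csf1 over the 8 libraries were those of Tgfbrap1 (Pearson r = 0.98), D030056L22Rik (0.97) and Zfp398 (0.97). Those most like Il34 were Tmem30a (0.98), Atp2c1 (0.95) and Zmpste24 (0.93). For Csf1r they were Sdf4 (0.99), Ctsh (0.98), which encodes a lysosomal protease, and Selenop (0.98), a selenoprotein gene that resident dermal macrophages also express. Among these genes, Selenop was in the list for resident dermal macrophages, and none of those nearest to a ligand was in any macrophage list. The share of listed genes among all candidates was not counted, so no difference between ligands and receptor is read from this.

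The members lie on different chromosomes apart from C1qa and C1qb. In GRCm38, with GENCODE M21 coordinates, Csf1 (ENSMUSG00000014599) is at chr3:107741048-107760469, Il34 (ENSMUSG00000031750) at chr8:110741829-110805924, Csf1r (ENSMUSG00000024621) at chr18:61100598-61132149 and Adgre1 (ENSMUSG00000004730) at chr17:57358691-57483527. Cd68 (ENSMUSG00000018774) is at chr11:69664213-69666153, Mrc1 (ENSMUSG00000026712) at chr2:14229392-14332057, Cd163 (ENSMUSG00000008845) at chr6:124304656-124330527 and Lyz2 (ENSMUSG00000069516) at chr10:117277331-117282321. C1qa (ENSMUSG00000036887) is at chr4:136895917-136898803 and C1qb (ENSMUSG00000036905) at chr4:136880129-136886187. The values count reads over the exons of each gene as a whole.

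Levels of different genes were compared per kilobase of the longest annotated transcript. In VC the order was Lyz2 at 5551 ± 2998 normalized counts per kilobase (SD, n = 4), C1qa at 1774 ± 888, C1qb at 1500.0 ± 777, Cd68 at 349.8 ± 218, Mrc1 at 192 ± 65.5, Csf1r at 189.6 ± 95.3, Cd163 at 164 ± 99.5, Adgre1 at 139 ± 63.3, Il34 at 63.3 ± 8.83 and Csf1 at 25.4 ± 15.5. The ranges of mean ± SD of neighbours in this order overlapped, except between C1qb and Cd68, between Adgre1 and Il34, and between Il34 and Csf1. In AP the ends of the order were again Lyz2, at 2407 ± 738, and Csf1, at 69.3 ± 28.7 (SD, n = 4), but Adgre1 at 70.6 ± 17, Cd163 at 88.6 ± 39.1 and Il34 at 97.1 ± 13.6 lay close to Csf1. Both ligands were at the bottom of the range in VC and next to the lower macrophage markers in AP.

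Further genes of the pathway were taken from lists. Values under total-count scaling below are to be read beside the median of all genes under that scaling, 0.90. Of the other reported receptors of IL-34, 1 of 2 was called higher: Sdc1, for the heparan sulfate proteoglycan syndecan-1, which keratinocytes express strongly, was at 986, 1535, 1364 and 701 normalized counts in VC and 1624, 1938, 2978 and 3573 in AP (log2 fold change 1.13, limma adjusted p = 0.0350), and the call was lost without VC.1 and VC.4 (0.73, limma adjusted p = 0.183) and without VC.1, VC.4, AP.2, AP.3 or AP.4 alone (0.92 to 1.24, limma adjusted p from 0.0616 to 0.107). Of 16 genes that carry the signal inside the cell below CSF1R, 1 was called higher and 0 lower, with a median log2 fold change of 0.02 (−0.07 to 0.15 with each library left out). The median was 0.18 without VC.1 and VC.4. With the trend on transcript length removed 0 were called higher and 1 lower, and under total-count scaling 12 were called higher with a median of 0.88. Under total-count scaling 8673 of all 16137 genes tested were called higher, and the list stood at −0.02 relative to the median of all genes. The gene called under the deposited normalization was Cbl, for the ubiquitin ligase that sends activated CSF1R to degradation. It was at 260.1, 213, 227 and 229 normalized counts in VC and 379, 574, 515 and 408 in AP, all AP libraries above all VC libraries, with a log2 fold change of 1.0 (limma adjusted p = 0.0107). With the trend on transcript length removed this became 0.46 and the call was lost (limma adjusted p = 0.111). The call for Cbl was kept without VC.1 and VC.4 (1.07, limma adjusted p = 0.0442). The most abundant gene of this list was Pik3r1, a regulatory subunit of phosphoinositide 3-kinase, with a log2 fold change of −0.35 (95% interval −0.77 to 0.06, limma adjusted p = 0.234).

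Receptors of other colony-stimulating factors were called in both directions. Of 5 receptor genes tested, 2 were called higher and 2 lower. Csf2rb, the shared beta chain of the receptors for GM-CSF, IL-3 and IL-5, was at 89.1, 90.1, 127 and 165 normalized counts in VC and 247, 330.0, 196 and 237 in AP (log2 fold change 1.12, limma adjusted p = 0.0227). Csf2rb2, its mouse-specific copy for IL-3, was at 16.4, 29.6, 46.4 and 39.4 in VC and 134, 296, 140.0 and 199.6 in AP (log2 fold change 2.53, limma adjusted p = 0.00644). Both had all AP libraries above all VC libraries and stayed called without VC.1 and VC.4 (1.21 and 2.27, limma adjusted p = 0.0499 and 0.0344), but Csf2rb lost its call without VC.1 (1.0), AP.2 (0.98) or AP.4 (1.14) alone (limma adjusted p = 0.0512, 0.0682 and 0.0601). They are uncertain as a pair, since 12.3% of the 50-base words of Csf2rb and 18.4% of those of Csf2rb2 occur in the other.

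The alpha chains that pair with these beta chains went the other way under the deposited normalization. Il3ra was at 282, 241, 227 and 373 normalized counts in VC and 207, 116, 88.2 and 117 in AP (log2 fold change −1.12, limma adjusted p = 0.0282), and Csf2ra at 220.1, 207, 158 and 203 in VC and 172, 78.2, 105 and 78.7 in AP (−0.92, limma adjusted p = 0.0498). Il3ra separated the groups and Csf2ra did not, as AP.1 lay above VC.3. Both calls were lost under total-count scaling, where the values were −0.26 and −0.06, and without VC.1 and VC.4, where they were −0.89 and −0.81. Relative to the median of all genes, Il3ra and Csf2ra were at −1.18 and −0.98 under the deposited normalization and at −1.16 and −0.96 under total-count scaling. Il3ra also lost its call without VC.1, VC.4, AP.2, AP.3 or AP.4 alone (−1.11 to −0.95, limma adjusted p from 0.0577 to 0.0901), and Csf2ra in edgeR (adjusted p = 0.0592), with total counts without mitochondrial genes, a pseudocount of 0.5, no filter or the length trend removed (limma adjusted p from 0.0513 to 0.0792) and without any single library other than AP.1 (−1.02 to −0.79, limma adjusted p from 0.0530 to 0.131). Csf3r, the receptor of the neutrophil factor G-CSF, was not called (log2 fold change −0.77, 95% interval −1.78 to 0.23, limma adjusted p = 0.276).

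Of 12 macrophage transcription factors, 0 were called higher and 1 lower, with a median log2 fold change of −0.30 that was 0.56 under total-count scaling, 0.01 without VC.1 and VC.4, −0.11 without VC.4 and −0.17 without AP.4. Relative to the median of all genes, that of these factors was −0.36 under the deposited normalization and −0.34 under total-count scaling. The one called was Mitf, a factor of osteoclasts, mast cells and melanocytes as well as macrophages, with a log2 fold change of −0.72 (limma adjusted p = 0.0427) that was 0.15 under total-count scaling and lost its call with total counts without mitochondrial genes (limma adjusted p = 0.0616), without VC.1 and VC.4 and without any single library (−0.77 to −0.60, limma adjusted p from 0.0531 to 0.118). Relative to the median of all genes, Mitf was at −0.78 under the deposited normalization and at −0.75 under total-count scaling. Cebpa, the most abundant of the 12 factors, is also expressed by keratinocytes and adipocytes and had a log2 fold change of 0.48 (95% interval −0.02 to 0.98, limma adjusted p = 0.178). Of 22 other macrophage markers, 0 were called in either direction in limma, 2 were lower in edgeR and 5 lower in DESeq2, 8 had an unadjusted p under 0.05, and 18 lay below 0, with a median of −0.58 that was 0.29 under total-count scaling and −0.12 without VC.1 and VC.4. Relative to the median of all genes, that of these markers was −0.64 under the deposited normalization and −0.61 under total-count scaling. In limma 4 of them were called lower without AP.1, 1 without VC.1 and 1 without VC.3. The most abundant, Ctsb, for the lysosomal protease cathepsin B, had a log2 fold change of −0.38 (95% interval −1.04 to 0.28, limma adjusted p = 0.422).

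Of 16 genes of resident dermal macrophages tested, 0 were called in limma, edgeR or DESeq2 (1 lower in limma without AP.1) and 1 had an unadjusted p under 0.05, with a median of −0.17 that was 0.70 under total-count scaling, −0.03 with the length trend removed and 0.24 without VC.1 and VC.4. Leaving out VC libraries 1 to 4 in turn gave −0.06, −0.28, −0.43 and 0.01, and AP libraries 1 to 4 −0.39, −0.10, −0.02 and −0.08. Relative to the median of all genes, that of the resident genes was −0.23 under the deposited normalization and −0.20 under total-count scaling. Their summed level was 14518, 10004, 8109 and 20168 normalized counts in VC and 16626, 11256, 8839 and 8568 in AP, with Selenop the most abundant (log2 fold change −0.17, 95% interval −0.93 to 0.58, limma adjusted p = 0.765). Of 8 monocyte genes, 0 were called in limma or edgeR, DESeq2 called 3 lower, and 3 had an unadjusted p under 0.05 in limma, with a median of −0.61. The median was 0.25 under total-count scaling (−0.65 relative to that of all genes), −0.81 without VC.1 and VC.4 and −0.81 with the length trend removed, where limma called 1 lower. Hp was the most abundant of these genes. Of 15 genes of wound and lipid-handling macrophages, 1 was called higher and 0 lower in limma (2 higher without VC.3, and 1 of each in DESeq2), with Lpl the most abundant. Of these 15, 10 lay above 0, as did 8537 of all 15964 genes tested, and 4 had an unadjusted p under 0.05. Their median was 0.44, with 0.24 in edgeR, 0.15 without VC.1, 0.83 without VC.2 and 0.24 without VC.1 and VC.4.

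The gene called among those of wound and lipid-handling macrophages was Ptgs2, for the inducible cyclooxygenase of prostaglandin synthesis, which keratinocytes and fibroblasts make too. It was at 5.46, 4.43, 5.46 and 1.88 normalized counts in VC and at 52.2, 60.9, 66.3 and 82.3 in AP, with no overlap. The VC values rest on 1 to 4 reads per library, so the size of the fold depends on the pseudocount. Its log2 fold change of 3.70 (95% interval 2.74 to 4.66, limma adjusted p = 0.00237) was 2.92 with a pseudocount of 5, and it was called under all 20 alternatives. Of 6 signals that macrophages can send to hair follicles, 1 was called higher and 0 lower (1 of each without VC.2). Their median was 0.79, and 0.22 without VC.1 and VC.4. The one called was Wnt7b, a Wnt ligand that keratinocytes also make. It was at 63.7, 87.2, 113 and 39.4 in VC and 168, 139, 343 and 459.9 in AP (log2 fold change 1.79, limma adjusted p = 0.0253), and was not called in limma-voom (adjusted p = 0.0640), without VC.1 and VC.4 (1.30, limma adjusted p = 0.130) and without VC.1, VC.4, AP.3 or AP.4 alone (1.49 to 1.74, limma adjusted p from 0.0501 to 0.0871). Igf1, the most abundant of these 6, had a log2 fold change of −0.82 (95% interval −1.54 to −0.10, limma adjusted p = 0.120).

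Langerhans cells depend on IL-34 and carry CSF1R. Cd207, for their lectin langerin, was at 47.3, 28.1, 42.3 and 52.5 normalized counts in VC and at 123, 79.8, 129.5 and 294 in AP, all AP libraries above all VC libraries, with AP.4 the highest. It rose with a log2 fold change of 1.72 (95% interval 0.89 to 2.56, limma adjusted p = 0.0224), and without VC.1 and VC.4 the value was 1.98 (limma adjusted p = 0.0589). The call was also lost in limma-voom (adjusted p = 0.0721) and without AP.3 (1.76, limma adjusted p = 0.0684) or AP.4 (1.37, limma adjusted p = 0.0597). Cd207 was the only one of 12 genes of dendritic and Langerhans cells called, 6 of the 12 lay below 0, and their median was −0.05. Without single libraries the median ran from −0.27 (without VC.3) to 0.07 (without VC.4), with −0.13 without VC.2, 0.03 without AP.1 and −0.02 without AP.3. It was −0.23 in edgeR, −0.22 in DESeq2 and 0.25 without VC.1 and VC.4. Under total-count scaling it was 0.79, which is −0.11 relative to the median of all genes. Cd74, the invariant chain of MHC class II and the most abundant of them, had a log2 fold change of −0.26 (95% interval −1.06 to 0.53, limma adjusted p = 0.657).

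Markers of other cells moved with the groups and are given beside these values. Of 11 keratinocyte genes, 6 were called higher and 0 lower, with a median log2 fold change of 2.70, and their summed level, led by Krt14, was 31368, 90587, 55989 and 28418 normalized counts in VC and 82759, 88839.6, 193010.0 and 281329 in AP. Krt10, Dsg1a, Krt1 and Ivl, genes of differentiating epidermal cells, had log2 fold changes of 3.85, 2.70, 3.46 and 2.89 (limma adjusted p = 0.00367, 0.00843, 0.00843 and 0.0113). Only 1 of the 11 was called without VC.1 and VC.4, Krt10 (3.36, limma adjusted p = 0.038), while Dsg1a, Krt1 and Ivl were at 2.34, 2.76 and 2.70 (limma adjusted p = 0.0508, 0.0523 and 0.0672). VC.1 and VC.4, high in macrophage markers, were lowest in keratinocyte genes. The part of this difference in the values of Il34, Sdc1, Wnt7b, Ptgs2 and Cd207 was not tested.

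Of the stromal lists, 0 of 8 fibroblast genes were called in limma, edgeR or DESeq2 (2 at an unadjusted p under 0.05 in limma), with a median of 0.49 that was 0.27 without AP.1, 0.32 without VC.2, 0.75 without VC.4, 0.85 without VC.1 and VC.4 and 0.16 with the length trend removed. Under total-count scaling 8 of 8 were called higher, with a median of 1.36, as were 8673 of all 16137 genes tested. Relative to the median of all genes, the fibroblast median was 0.46 under that scaling and 0.43 under the deposited normalization. The sum of the fibroblast genes, led by Col1a1, was 115309, 77695, 80254 and 216718 in VC and 251315, 188408, 135613 and 96388 in AP. Csf1 had the same order among the AP libraries as this sum, while in VC the lowest Csf1, in VC.1, came with the second highest sum. Of 6 endothelial genes, 2 were called higher, Pecam1 (log2 fold change 1.44, limma adjusted p = 0.0198) and Cdh5 (1.75, limma adjusted p = 0.0386), with a median of 1.41 (2.27 under total-count scaling), and the sum, led by Pecam1, was 1126, 928, 1262 and 1601 in VC and 2206, 5013, 1881 and 2026 in AP. DESeq2 called 4 of the 6 higher, and limma called 3 with a pseudocount of 5, with a filter at 10 or without VC.4. Without VC.1 and VC.4 limma called 1 higher, which was neither Pecam1 nor Cdh5. Pecam1 and Cdh5 lost their calls without VC.1 and VC.4 (1.43 and 2.06, limma adjusted p = 0.0869 and 0.0824), and Cdh5 lost its call with the length trend removed (limma adjusted p = 0.0628) and without VC.1, VC.2, AP.2, AP.3 or AP.4 alone (1.33 to 1.92, limma adjusted p from 0.0647 to 0.0887). Both cell types are sources of CSF1, and their part in the value of Csf1 was not tested.

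Of 7 pan-leukocyte genes, 1 was called higher and 0 lower, with a median of −0.20 that was 0.67 under total-count scaling, 0.18 without VC.1 and VC.4, 0.07 without VC.4, −0.40 without VC.3 and −0.31 without AP.1. Under total-count scaling the list stood at −0.23 relative to the median of all genes. Lcp1, for the actin-bundling protein L-plastin, was at 133, 233, 205 and 396 normalized counts in VC and 606, 516, 390.1 and 541 in AP (log2 fold change 1.17, limma adjusted p = 0.0297), and its call was lost without VC.1, VC.3, AP.2, AP.3 or AP.4 alone (0.92 to 1.30, limma adjusted p from 0.0545 to 0.0800). The call for Lcp1 was kept without VC.1 and VC.4 (1.21, limma adjusted p = 0.0371). The sum of the list, led by Laptm5, was 1664, 1667, 1486 and 3167 in VC and 2586, 1863, 1605 and 1797 in AP. Of 4 neutrophil genes tested, which share Lyz2 with macrophages, 1 was called higher, S100a9, at 3.64, 25.1, 5.46 and 7.50 in VC and 13.1, 112, 89.2 and 257 in AP (log2 fold change 3.11, limma adjusted p = 0.0365), while DESeq2 called 2 of them higher and limma 2 without AP.1. The VC values of S100a9 rest on 2 to 17 reads per library, and its log2 fold change was 2.65 with a pseudocount of 5. S100a9 lost its call in limma-voom (adjusted p = 0.205), without VC.1 and VC.4 (2.59, limma adjusted p = 0.164) and without any single library other than VC.2 and AP.1 (2.53 to 3.08, limma adjusted p from 0.0654 to 0.107). All 4 neutrophil genes lay above 0, with a median of 1.56 that was 1.79 without VC.1 and VC.4 and 0.51 with no filter. S100a8 was the most abundant of them, and keratinocytes can make both S100a8 and S100a9.

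Of 7 mast cell genes tested, 0 were called higher and 2 lower, Mcpt4 (log2 fold change −1.08, limma adjusted p = 0.0280) and Tpsb2 (−1.39, limma adjusted p = 0.0453), both proteases of connective tissue mast cells. Their values were −0.22 and −0.53 under total-count scaling, where neither was called. Relative to the median of all genes they were −1.12 and −1.43 under that scaling, and −1.14 and −1.45 under the deposited normalization. The log2 fold changes were −0.69 and −0.84 without VC.1 and VC.4, with neither called. Both calls were also lost with the length trend removed (−0.77 and −1.12, limma adjusted p = 0.0761 and 0.0819), and that for Tpsb2 with no filter (limma adjusted p = 0.0513). Among fits without 1 library, calls were lost for Mcpt4 without VC.1, VC.4, AP.3 or AP.4 alone (−0.99 to −0.92, limma adjusted p from 0.0564 to 0.0915) and for Tpsb2 without any single library other than VC.3 and AP.1 (−1.56 to −1.15, limma adjusted p from 0.0585 to 0.132). DESeq2 called 3 of the list lower, as did limma without VC.3.

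Of 5 genes of T, B and NK cells tested, 0 were called in limma, edgeR or DESeq2 (1 higher in limma without VC.3) and 3 had an unadjusted p under 0.05, with Cd4 the most abundant and a summed level of 45.5 to 189 in VC and 107 to 168 in AP. Of these 5, 4 lay above 0, with a median of 1.18 that was 0.44 without VC.1 and VC.4 and 0.53 with no filter. Of 6 skeletal muscle genes, led by Acta1, 0 were called in limma, edgeR or DESeq2 and 5 had an unadjusted p under 0.05, with a median of −1.80, but without AP.1, the AP library where their sum was highest, limma called 6 of 6 lower (median −2.50). The median was −1.19 in edgeR, −1.17 in DESeq2 and −0.93 under total-count scaling. Of 5 adipocyte genes, led by Fabp4, 0 were called in limma, edgeR or DESeq2 and 1 had an unadjusted p under 0.05, with a median of 0.23 that was −0.17 without VC.2, −0.27 without AP.2, 0.57 without VC.1, 0.40 without AP.4, 0.11 with the length trend removed, 1.09 under total-count scaling and 0.75 without VC.1 and VC.4. Of 5 red blood cell genes, 1 was called higher, Hbb-bs (log2 fold change 1.24, limma adjusted p = 0.0231), and DESeq2 called 1 of each direction. The call for Hbb-bs was lost without VC.1 and VC.4 (1.03, limma adjusted p = 0.123) and without VC.1, AP.2 or AP.4 alone (1.02 to 1.32, limma adjusted p from 0.0526 to 0.0604). Of 12 mitochondrially encoded genes tested, 10 were called lower (6 without AP.2 and 6 without AP.3), with a median of −3.38, mt-Co1 the most abundant, and mt-Co2, mt-Atp6, mt-Nd4l and mt-Nd3 at −2.91, −2.80, −3.64 and −3.18 (limma adjusted p = 0.000918, 0.000918, 0.000973 and 0.000973). Total-count scaling, under which 8673 of all genes tested were called higher, gave higher calls for 5 of 12 transcription factors, 5 of 22 other macrophage markers, 7 of 16 genes of resident and 7 of 15 of wound and lipid-handling macrophages, 2 of 8 monocyte genes, 4 of 6 signals to hair follicles, 3 of 12 dendritic and Langerhans, 4 of 7 pan-leukocyte, 3 of 5 neutrophil, 2 of 7 mast cell, 3 of 5 T, B and NK cell, 2 of 5 adipocyte, 3 of 5 red blood cell, 5 of 6 endothelial and 11 of 11 keratinocyte genes. No gene of any list that was in the table was at 0 in all libraries.

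The bases before the transcription start of a ligand and of 2 markers are shown as a description, to set letters of macrophage genes beside those of Csf1, and no link between them and the levels was tested. RefSeq promoter windows (build GRCm38.p6, 250 bases before to 50 after the start) were at hand for 6 of the 10 members and not for Il34, Csf1r, Adgre1 or C1qa. They were searched on both strands for GGAAGT, the core bound by PU.1, the factor that sets macrophage identity, and for TGAGTCA, the AP-1 site. GGAAGT was in the windows of 4 of the 6, Cd68, Mrc1, Lyz2 and C1qb, beside 23.8% of 32851 windows of all genes, and TGAGTCA was in that of 1, Cd68, beside 5.2%. Neither was in the windows of Csf1 or Cd163. A match is a description of the letters and not a measured site. The bases upstream of the annotated gene follow, 250 for C1qb, 201 for Lyz2 and 250 for Csf1, with matches to GGAAGT on either strand in capitals. They lie at chr4:136886201-136886450, chr10:117282322-117282522 and chr3:107760470-107760719, all on the minus strand.
C1qb: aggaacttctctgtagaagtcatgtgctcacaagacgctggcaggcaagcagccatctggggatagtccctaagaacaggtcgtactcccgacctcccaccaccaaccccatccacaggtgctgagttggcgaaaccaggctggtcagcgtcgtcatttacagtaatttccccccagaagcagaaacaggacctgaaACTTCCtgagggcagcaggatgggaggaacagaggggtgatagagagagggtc
Lyz2: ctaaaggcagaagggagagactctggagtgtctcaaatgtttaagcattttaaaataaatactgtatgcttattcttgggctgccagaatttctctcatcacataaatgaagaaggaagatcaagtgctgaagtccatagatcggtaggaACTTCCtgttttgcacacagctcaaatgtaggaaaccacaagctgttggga
Csf1: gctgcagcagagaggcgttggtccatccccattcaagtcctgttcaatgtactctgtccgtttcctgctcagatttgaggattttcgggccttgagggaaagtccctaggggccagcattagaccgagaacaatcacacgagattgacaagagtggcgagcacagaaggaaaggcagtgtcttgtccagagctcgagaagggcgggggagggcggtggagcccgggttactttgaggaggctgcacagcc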

How the data were processed

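The authors sequenced poly(A) RNA, cleaned the reads, aligned them with STAR (mm10) and counted reads over genes (featureCounts in the methods, HTSeq in the submitters' processing notes). The deposited values, a signal that is not in whole reads, are counts that the authors scaled by a DESeq2 size factor for each library. Columns of the authors' own comparison (fold change, standard error, statistic, p-value and adjusted p-value) were not used. All 150160 values were within 0.1 read of a whole number of reads, so reads were recovered.

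Values as log2(value + 1) were tested with limma 3.58.1 in R 4.3.3, with an intensity trend, on genes that reached 3 normalized counts in 4 or more of 8 libraries. P-values were adjusted by Benjamini-Hochberg over 15964 genes. Alternatives were edgeR 4.0.16 and DESeq2 1.42.0 on the recovered reads (edgeR called 1003 genes higher and 712 lower), limma-voom, other scalings, pseudocounts and filters, a trend on transcript length removed by loess (span 0.3) and each library left out. The fits of these 4 tools were tested on simulated data. Single values were compared with a 2-sided exact permutation test over 70 assignments.

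Members and lists were chosen with earlier results of these data known. Named genes are the members, the called genes of each list (up to 4 with the smallest p), the most abundant gene of each list, and the 3 genes most correlated with Csf1, Il34 and Csf1r. Of the listed genes, Csf2, Il3, Ly6g, Mpo, Ltf, Cd79a and Ms4a1 were not analysed here. Further listed genes, such as Csf3, were in the table but did not pass the filter and were not tested. Depth was 6454563 to 11190113 reads, and 3 reads were worth 1.49 to 5.63 normalized counts. A figure legend of the paper counts 4 mice in each group, and the labels do not say which column is which mouse.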

Additional observations from a re-analysis of the deposited data

Results flagged for a closer look

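Values of members, of other named genes, of the ratios, of the summed lists and of depth were examined in 170 groups of 4 libraries for a single library far from the others. Chance marks about 1 in 20 such groups, and 14 were marked, none of them a value of a member or of a ratio. AP.2 stood above the other AP libraries in Pecam1 (2244 normalized counts), Cdh5 (1373), the summed endothelial genes (5013) and the summed genes of wound and lipid-handling macrophages (11048). AP.1 stood above them in Cd74 (7666), Acta1 (20882) and the summed skeletal muscle genes (50305). AP.3 was low in mt-Co2 (116) and mt-Nd3 (79.7), and AP.4 was low in Mitf (83.0). VC.4 was high in Cd4 (139), Laptm5 (1050.0) and the summed pan-leukocyte genes (3167), the same library that was highest in Csf1r and all 7 markers, and VC.3 was high in Hbb-bs (330.4). What lies behind these values was not tested.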

How the results depend on the processing

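The number of genes called depended on the tool, the scaling and the libraries, and the cause was not tested. Main counts were 1011 higher and 639 lower. They were 1677 and 1362 in DESeq2, 8673 and 65 with total-count scaling (all-gene median 0.90), 580 higher with the length trend removed, and 267 and 119 without VC.1 and VC.4, where fewer libraries enter. Each library left out in turn gave 209 to 1082 higher and 94 to 817 lower; the counts moved by over 1.5 times without VC.1 (585 and 261), AP.2 (398 and 155), AP.3 (209 and 94) and AP.4 (254 and 139).

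Csf1 stayed above 0 in all 20 alternatives and lost its call in 15. Its log2 fold change was 1.42 in edgeR, 1.49 in limma-voom, 1.6 with total counts without mitochondrial genes, 1.5 with upper-quartile scaling, 1.56 with a pseudocount of 0.5 and with no filter, 1.39 with the length trend removed, 0.95 without VC.1 and VC.4, and 1.14 to 1.92 with each library left out, where 1 of 8 fits kept the call. Il34 was called in 3 of 20: 0.61 in DESeq2, 1.47 with total counts and 0.75 with the length trend removed; leaving out each library gave 0.54 to 0.69. Signs turned with total counts for Csf1r (0.72), Adgre1 (0.0043), Mrc1 (0.24), Cd163 (0.10), C1qb (0.088) and Mitf (0.15). That scaling moved the median of all genes from 0.06 to 0.90. Relative to that median these genes stayed below 0, at −0.18, −0.90, −0.66, −0.80, −0.81 and −0.75 in the same order. The sign of Csf1r also turned without VC.4 (0.15) and without VC.1 and VC.4 (0.36), with −0.33 to 0.15 over single libraries. Adgre1 was also called without VC.2 (−1.20, limma adjusted p = 0.0239), Lyz2 without VC.3 (−1.37, limma adjusted p = 0.0406) and C1qa without AP.1 (−1.34, limma adjusted p = 0.0326). Cd68, Mrc1, Cd163 and C1qb were called in 0 of 20.

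The differences of the log2 ratios without VC.1 and VC.4 were 0.59 for Csf1 to Csf1r and 1.22 for Csf1 to Adgre1; with 3 libraries against 4 or fewer, ratios were given as values with no test. Depth limits the low end: VC.1 had 21 reads on Csf1 and AP.2 had 716.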
